A study of Mus musculus with 12 samples.

Results

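The genes described here are 31 components of epithelial cell junctions, out of 28793 genes in an RNA sequencing table from mouse large intestine. They were taken by symbol: 13 claudins, 7 tight junction partners, 3 adherens junction genes and 8 desmosome genes. The set was chosen by the RPKM of Cldn8, which was higher in null than in heterozygous crypts, and it serves to ask whether the other junction genes followed. The difference that chose Cldn8 is therefore given below as a description, with no test.

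All 12 libraries came from C57BL/6 mice aged 3 months that differed in Tert, the reverse transcriptase subunit of telomerase. Whole crypt epithelium, unsorted, was profiled with 2 libraries for each of 3 groups: heterozygous mice, generation 4 Tert-null mice (called null G4) and mice of the same generation labelled as having telomerase reactivated. GFP-sorted crypt base columnar cells, labelled stem or progenitor cells, were profiled with 3 libraries for heterozygous mice and 3 for generation 3 Tert-null mice (called null G3). Heterozygous libraries also carry the tag G0 and reactivated libraries the tag G4tam, in which tam is not spelled out. Beyond that tag the labels do not say how Tert was switched back on. Nor do they say which promoter drove GFP or which animal gave which library. The p-values therefore cover the spread among the libraries alone, and that spread may be technical.

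Tight junctions close the gap between neighbouring epithelial cells near their apical edge. Claudins build the strands of the junction, and the claudins present decide whether it seals or lets selected ions and water through. Occludin and its relatives join the strands, the zonula occludens proteins tie them to actin, and below them adherens junctions (E-cadherin and catenins) and desmosomes (desmosomal cadherins, plakoglobin, plakophilins and plakins) hold the cells together mechanically.

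Several facts of the libraries bear on every value below. Values are RPKM (reads per kilobase of gene, scaled to the library total), so genes can be set beside each other within a library. The smallest RPKM steps implied depths, in units of 1000000 reads, of 74.8 to 103 per unsorted library and, less certain, 149 to 248 per sorted library. Unsorted libraries held 10633 to 11162 genes at RPKM 1 or more and sorted libraries 7721 to 9144, apart from replicate 1 of sorted null G3 with 5424. That library stood apart: its Lgr5, a crypt stem cell marker, was at 0.121 RPKM, where the rest of the sorted set had 3.4 to 4.74 (0.453 to 0.928 in unsorted crypts), and its summed RPKM of 10 small intestine enterocyte markers was 6741 against 92.7 to 141.9. In the unsorted set, the summed RPKM of 4 Y-linked genes was 18.3 and 18.9 in the heterozygous libraries and 18.2 in reactivated replicate 2, but at most 0.0148 in both null G4 libraries and reactivated replicate 1, which expressed Xist instead (22.3 to 28.6 RPKM against at most 0.0336). Sex and genotype cannot be told apart in the comparison of null G4 with heterozygous crypts. Fibroblast and leukocyte marker lists summed to at most 5.58 and 6.22 RPKM in unsorted libraries. Tert itself lay at 0.459 and 0.251 RPKM for heterozygous, 0.00778 and 0.0377 for null G4 and 0.0171 and 0.0311 for the libraries labelled reactivated, whose Tert level thus lay within the null range. They are called reactivated below only as labelled. In sorted cells Tert was 0.0424, 0.0583 and 0.169 RPKM for heterozygous and 0, 0.0787 and 0.00131 for null G3, so those groups overlapped.

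Of the 13 claudins 8 were detected in crypts. The rest, Cldn1, Cldn5, Cldn6, Cldn10 and Cldn18, stayed below 0.1 RPKM in every library. Their highest value was 0.0766 in unsorted and 0.0191 in sorted libraries, and Cldn18 was listed at 0 throughout. Cldn5 is the claudin of blood vessel walls, and of 9 endothelial markers measured, 5 (Cdh5, Kdr, Tek, Tie1 and Flt1) were below 0.1 RPKM in every unsorted library. The other 26 junction genes were at 1 RPKM or more in all 6 unsorted libraries and were tested there. In heterozygous crypts the most abundant were Cldn3 (97.5 ± 9.51 RPKM, SD, n = 2), Cldn7 (93.7 ± 18.0) and Cdh1 (85.2 ± 3.06), and the range of Cldn7 overlapped those of the other two.

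Cldn8, a sealing claudin of the distal colon and the kidney collecting duct, was the member that differed most (ENSMUSG00000050520, mm10, chr16:88560828-88563183, minus strand). In unsorted crypts heterozygous libraries had 4.15 and 3.98 RPKM of it, null G4 libraries 30.5 and 34.9 and reactivated libraries 22.9 and 21.2. All 4 libraries of generation 4 were thus far above both heterozygous ones, and the reactivated pair lay below the null pair with no overlap. The log2 difference of null G4 from heterozygous was 2.73 (SE 0.18) on the log2(RPKM + 1) scale. Differences here need a reference, because the median over all 11464 tested genes was 0.36 and not 0; relative to it Cldn8 stood at 2.37, higher than 99.8% of genes.

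Of the reactivated pair, replicate 2, which expressed Y-linked genes like the heterozygous pair, had 21.2 RPKM of Cldn8, and the Xist-expressing replicate 1 had 22.9, so all 3 Xist-expressing libraries lay above all 3 Y-expressing ones. With a term for Y-linked expression the log2 difference was 2.62 (SE 0.24). That term is set almost wholly by the difference within the reactivated pair, the only unsorted group with both kinds of library. It cannot tell sex from whatever else differed between those libraries. The summed RPKM of 8 distal colon markers was also higher in the generation 4 libraries than in the heterozygous pair. It came to 36.4 and 25.7 for the heterozygous pair, 73.9 and 94.8 for null G4 and 74.96 and 79.99 for reactivated crypts. The reactivated sums thus lay within the null G4 range. Most of the sum was Hoxb13 and Insl5, and Hoxd10 and Hoxd12 in reactivated replicate 1 (0.129 and 0.0409 RPKM) lay below both heterozygous libraries. Of the 4 of them that could be tested, Hoxb13 (log2 difference 1.44, adjusted p = 0.0347) and Hoxd13 (1.92, adjusted p = 0.0204), homeobox genes of the hindgut end of the body axis, rose in null G4, while Insl5 (1.10, adjusted p = 0.0547) and Scnn1b (0.59, adjusted p = 0.0701) did not pass. Those calls were lost when all libraries were scaled to one median (adjusted p = 0.117 and 0.104), and without 1 library: Hoxb13 without heterozygous replicate 2 or either null G4 library (0.0852 to 0.244), Hoxd13 without heterozygous replicate 1 (0.0539). In sorted cells the marker sum was 4.402 to 8.082, and 0.0616 in null G3 replicate 1, where Cldn8 was 0.0627 RPKM against 2.87 to 4.96 elsewhere. The part of these markers in the Cldn8 difference was not tested.

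**Figure D1:**
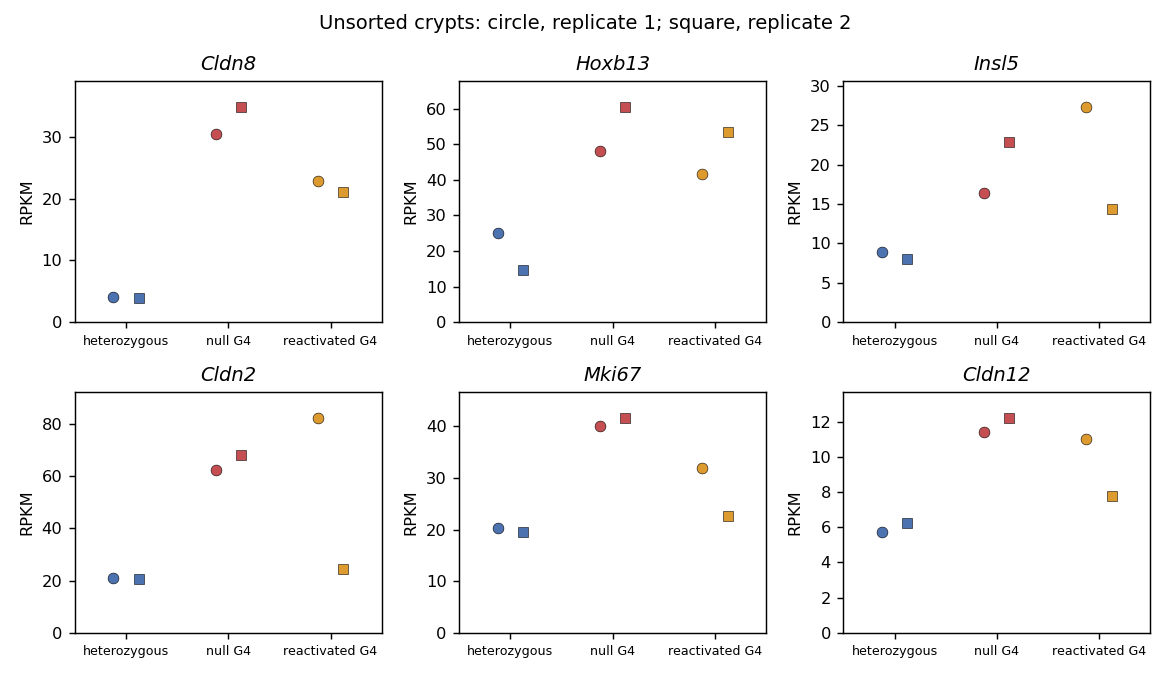
RPKM (y axes from 0) of Cldn8, Cldn2 and Cldn12, of the distal colon markers Hoxb13 and Insl5 and of the proliferation marker Mki67, by group on the x axis, with each point 1 unsorted library (circle, replicate 1; square, replicate 2). Cldn8 was 4.15 RPKM or less in heterozygous and 21.2 or more in all 4 generation 4 libraries, and Cldn2 and Mki67 were lower in the square than in the circle of the reactivated pair.

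Cldn2 is the cation and water channel claudin of the crypt. Its RPKM in unsorted crypts was 21.1 and 20.5 for heterozygous, 62.5 and 68.0 for null G4, and 82.3 and 24.3 for reactivated libraries. The reactivated pair thus split, with the Xist-expressing replicate beside the null libraries and the Y-expressing replicate beside the heterozygous ones. The log2 difference of null G4 from heterozygous was 1.60 (SE 0.46, adjusted p = 0.0588, limma) and did not pass. With the Y-linked term, which draws on that same split of the reactivated pair, it was -0.13 (adjusted p = 0.906). Cldn2 lies on the X chromosome (mm10, chrX:139800828-139811386, plus strand). Beside it, the summed RPKM of 8 proliferation markers showed the same split of the reactivated pair: 65.6 and 66.7 for heterozygous, 143 and 157 for null G4, 125 in reactivated replicate 1 and 70.6 in replicate 2. The part of these markers in the Cldn2 difference was not tested.

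Cldn12 (chr5:5489537-5514958, minus strand), a claudin linked to calcium passage, was the only member to pass in that comparison apart from Cldn8, which chose the set. Heterozygous crypts had 5.72 and 6.27 RPKM, null G4 crypts 11.4 and 12.2 and reactivated crypts 11.02 and 7.78, so all 3 groups were separate. It rose by a log2 difference of 0.88 (SE 0.19, adjusted p = 0.044), more than 94.3% of genes. The call was lost when any 1 of the 4 heterozygous or null G4 libraries was left out (adjusted p between 0.091 and 0.322), with median scaling (0.52, adjusted p = 0.0536, where 2.81% of all genes passed) and with the Y-linked term (0.42, adjusted p = 0.56, where 0.602% passed).

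Cldn15 (chr5:136966616-136975858, plus strand) is a channel claudin like Cldn2, best known from small intestine. Heterozygous crypts had 49.9 and 55.7 RPKM, null G4 crypts 48.3 and 53.7 and reactivated crypts 63.1 and 38.9, with overlapping groups and a log2 difference of -0.05 between null G4 and heterozygous. The ratio of Cldn2 to Cldn15 was 0.424 and 0.369 for heterozygous, 1.29 and 1.27 for null G4, and 1.31 and 0.625 for reactivated crypts.

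The starts of the Cldn2, Cldn15 and Cldn12 genes are shown because these claudins differed in how they compared between the crypt groups. The windows run from 250 bases before to 50 bases after a RefSeq start (GRCm38.p6). Capitals mark motif letters on either strand: GGAATG of TEAD factors, the partners of the YAP1 named in the title of the study, TTTATG of CDX factors and TTCNNNGAA of STAT factors. The TEAD and STAT letters can overlap in a sequence, but did not in these windows.
Cldn2, chrX:139800558-139800857, plus strand: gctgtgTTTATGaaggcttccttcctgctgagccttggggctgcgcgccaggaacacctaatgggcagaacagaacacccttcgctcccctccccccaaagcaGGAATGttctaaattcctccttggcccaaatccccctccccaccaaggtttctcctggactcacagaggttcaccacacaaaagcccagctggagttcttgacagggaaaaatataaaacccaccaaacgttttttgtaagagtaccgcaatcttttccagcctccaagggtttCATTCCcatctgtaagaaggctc
Cldn15, chr5:136967619-136967918, plus strand: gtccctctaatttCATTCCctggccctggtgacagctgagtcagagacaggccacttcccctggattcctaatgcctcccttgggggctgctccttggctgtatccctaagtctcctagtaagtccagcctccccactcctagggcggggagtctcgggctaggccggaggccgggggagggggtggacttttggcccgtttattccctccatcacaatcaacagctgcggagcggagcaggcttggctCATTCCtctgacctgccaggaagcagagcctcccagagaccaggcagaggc
Cldn12, chr5:5514800-5515099, minus strand: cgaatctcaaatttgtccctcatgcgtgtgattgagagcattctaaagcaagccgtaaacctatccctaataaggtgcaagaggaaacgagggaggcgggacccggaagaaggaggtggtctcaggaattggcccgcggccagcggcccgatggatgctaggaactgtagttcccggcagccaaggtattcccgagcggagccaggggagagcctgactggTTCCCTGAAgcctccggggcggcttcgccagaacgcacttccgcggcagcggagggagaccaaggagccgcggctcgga
The Cldn2 window held GGAATG in forward and reverse form and TTTATG once, the Cldn15 window held 2 reverse forms of GGAATG, and the Cldn12 window held TTCCCTGAA. The TEAD letters were in the window of Cldn15, whose groups overlapped, as well as in that of Cldn2. Of 29 windows of 20 junction genes, 4 held the TEAD letters (13.8%), against 14.7% of 32851 windows of all genes. The other shares were 3 of 29 for CDX (10.3%, against 11.9%) and 3 of 29 for STAT (10.3%, against 8.3%). CAGGTG, the E-box of SNAI repressors, was in 12 of 29 (41.4%) against 20.2%, in windows whose median GC content was 60.3% against 52.7%. A match of letters is a description and not a binding site, and the windows of 1 gene can overlap. Cldn12 had other windows than the printed sequence. That at chr5:5514740-5515039 held the same STAT letters, so this site is counted more than once, and that at chr5:5514927-5515226 held none of the motif letters.

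Cldn7 and Cldn3 were the most abundant claudins of the unsorted libraries. Cldn7 lay at 81.0 and 106.4 RPKM for heterozygous, 156.4 and 186.0 for null G4 and 160.0 and 139.1 for reactivated crypts. Cldn3 was 90.8 and 104.2 RPKM, 123.9 and 122.1, and 132.9 and 130.8 in the same order. Both were lowest in the heterozygous pair without overlap, but neither passed. The log2 difference of Cldn7 in null G4 (0.87, adjusted p = 0.0594) was close to that of Cldn12, and that of Cldn3 was 0.34 (-0.02 with median scaling). Cldn23 (5.75 to 8.26 RPKM) and Cldn4 (1.81 to 4.38), the rest of the detected claudins, overlapped between all groups.

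Seen as shares of the summed RPKM of the 13 claudins, the claudin RNA of the unsorted groups differed in a few components. Cldn8 made up 1.59% and 1.29% of claudin RPKM in heterozygous crypts, 6.88% and 7.17% in null G4 and 4.72% and 5.69% in reactivated crypts. Cldn2 made up 8.12% and 6.63% in heterozygous crypts, 14.1% and 13.95% in null G4, and 17.01% and 6.52% in reactivated crypts, so that the reactivated pair lay above and below all 4 other libraries. Cldn15 made up 19.2% and 18.0% in heterozygous crypts, 10.91% and 11.02% in null G4 and 13.03% and 10.45% in reactivated crypts. Cldn3 and Cldn7 together remained the bulk: Cldn3 was 25.1% to 35.2% and Cldn7 31.1% to 38.2% of claudin RPKM over the 6 libraries. These shares are free of the shift common to all genes, but a rise of 1 claudin lowers the share of the rest.

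**Figure D2:**
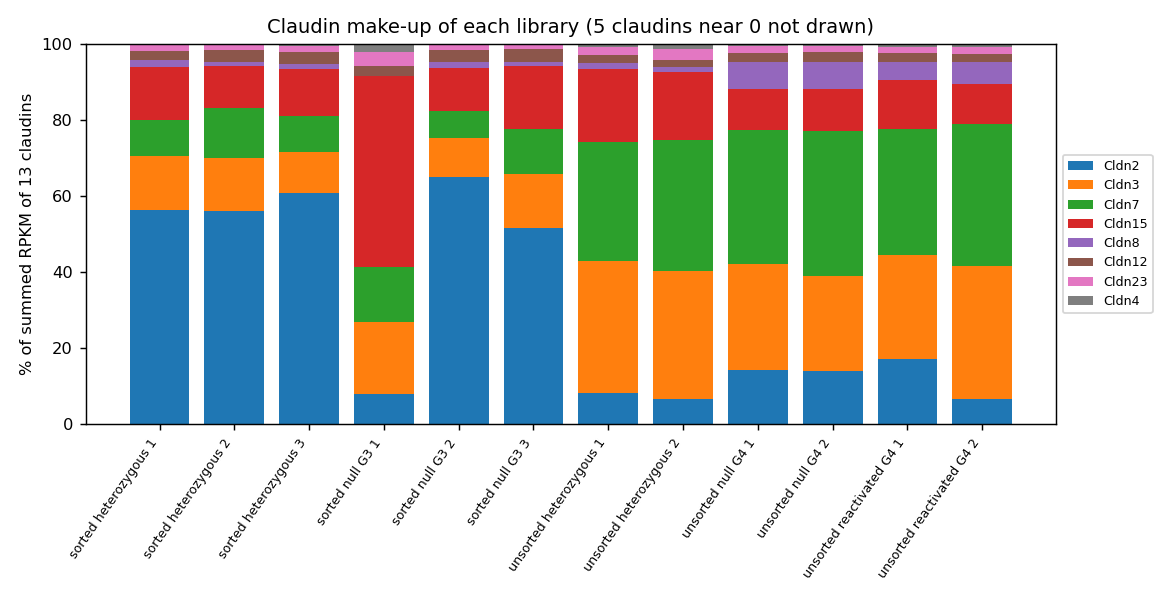
Share of each claudin in the summed RPKM of the 13 claudins (y axis, percent), with 1 stacked bar per library. Cldn3 and Cldn7 lead in unsorted crypts and Cldn2 in sorted cells, except sorted null G3 replicate 1, where Cldn15 makes up 50.4%.

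Of the 25 tested junction genes other than Cldn8, 1 passed in null G4 against heterozygous crypts, Cldn12, which was higher (4.97% of all 11464 genes passed as higher and 0.576% as lower). Counted with Cldn8, in 22 of 26 the null libraries lay above the heterozygous ones without overlap, as did 74.7% of all genes, and in none below them (6.5% of all genes). The median log2 difference was 0.48, or 0.47 without Cldn8, beside 0.36 for all genes, with 20 of 26 above that median and 24 of 26 above 0 (86.1% of all genes). The count above the all-gene median depended on the setting. It was 16 with 0.1 and 18 with 0.5 added to RPKM in place of 1, and 16 to 22 without 1 library. Median scaling gave 20 and quantile normalization 10. The middle of the members ran from 0.38 to 0.67 (quartiles), that of all genes from 0.15 to 0.56. Fitted on the 4 libraries of these groups alone, 14 of 26 members passed (53.8%), as did 51.8% of all genes. The share of summed RPKM in mitochondrial ribosomal RNA also moved with the groups (19.2% and 27.3% in heterozygous, at most 12% in null G4, 10.8% and 16.7% in reactivated crypts), as did small intestine enterocyte markers. Of 9 of these tested, 1 fell (Rbp2, -1.85, adjusted p = 0.0442) and 8 were separate and lower in null G4 (6.5% of all genes). The sum over all 10 on the list was 101.5 and 308.7 RPKM for heterozygous, 77.9 and 85.05 for null G4 and 119.5 and 88.8 for reactivated crypts. Heterozygous replicate 2 was also highest in surface colonocyte markers, with a sum of 4171 RPKM against 1216 to 1887 in the other unsorted libraries. The part of these values in the members' differences was not tested. Under median scaling the members' median was 0.12 with 21 of 26 above 0, and under quantile normalization it was -0.03 with 11 of 26 above 0, so the direction of the group depends on the scaling. In bulk samples, fewer cells of a type and less RNA per cell cannot be told apart.

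**Figure D3:**
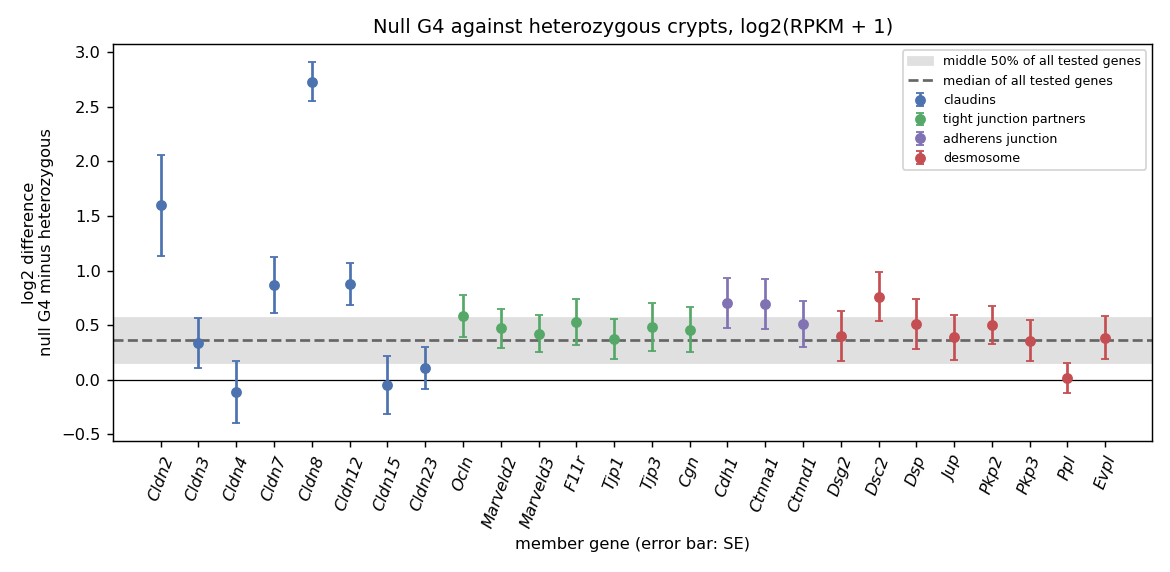
Log2 difference of null G4 from heterozygous crypts (y axis, log2(RPKM + 1) scale) for the 26 tested junction genes, with bars for 1 standard error, colours for the junction type, and the median (0.36, dashed line) and middle 50% (grey band) of all tested genes. Cldn8 at 2.73 stands apart from the rest, which lie between -0.11 and 1.60.

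None of the 7 tight junction partners passed. In all 7 the null G4 libraries lay above the heterozygous ones, as in 74.7% of all genes, and the differences ran from 0.38 to 0.58 with a median of 0.47, beside 0.36 for all genes. Ocln, encoding occludin, lay at 9.48 and 11.1 RPKM for heterozygous, 14.7 and 17.2 for null G4 and 15.4 and 13.2 for reactivated crypts. Marveld2, the tricellulin gene of the corners where cells meet, ranged from 4.92 to 8.68 RPKM and its relative Marveld3 from 7.02 to 10.7. F11r, the adhesion molecule JAM-A, was 20.4 and 25.5 RPKM in heterozygous and 30.4 to 36.6 in the other 4 libraries. The scaffolds differed in level: Tjp3 (ZO-3) was 45.5 to 70.5 RPKM, Cgn (cingulin) 15.8 to 23.8 and Tjp1 (ZO-1) 7.81 to 12.1 over the unsorted libraries. The ratio of Tjp3 to Tjp1 was 5.08 to 6.82 in those libraries.

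The 3 adherens junction genes had the highest median of the groups (0.70) but none passed. Cdh1, encoding E-cadherin, lay at 83.0 and 87.4 RPKM for heterozygous, 132.7 and 146.2 for null G4 and 125.4 and 145.9 for reactivated crypts. The heterozygous pair was below all others. Ctnna1, the link of the complex to actin, was 45.4 and 56.3, then 76.4 and 89.5, then 73.7 and 69.7 RPKM in the same order. Ctnnd1, encoding p120-catenin that holds E-cadherin at the membrane, was 24.7 and 28.3 RPKM in heterozygous and 33.6 to 40.3 in the other libraries.

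Of the 8 desmosome genes none passed, 7 had separate groups with null G4 higher (74.7% of all genes), and the median difference of 0.40 was near that of all genes. Dsc2, the desmosomal cadherin desmocollin 2, lay at 20.0 and 26.1 RPKM for heterozygous, 37.3 and 41.6 for null G4 and 36.3 and 30.2 for reactivated crypts, with a log2 difference of 0.76 (SE 0.22, adjusted p = 0.0593). Its partner Dsg2 was 15.0 and 18.2, then 21.5 and 22.9, then 18.8 and 26.8 RPKM. The ratio of Dsc2 to Dsg2 was 1.33 and 1.43 for heterozygous, 1.74 and 1.82 for null G4, and 1.93 and 1.13 for reactivated crypts, so that the reactivated pair lay on both sides of the others. Dsp, the desmoplakin that anchors keratin, ranged from 37.4 to 61.7 RPKM, Jup (plakoglobin) from 17.9 to 28.2, Pkp3 from 11.04 to 17.23 and Pkp2 from 5.42 to 8.58, each lowest in the heterozygous pair. The plakin Ppl lay at 1.499 to 1.707 RPKM (difference 0.02), while Evpl, its partner in cornifying epithelium, lay at 5.49 and 5.97 for heterozygous, 7.39 and 8.22 for null G4 and 7.82 and 11.2 for reactivated crypts. Squamous epithelium markers summed to at most 1.05 RPKM in the unsorted libraries.

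**Figure D4:**
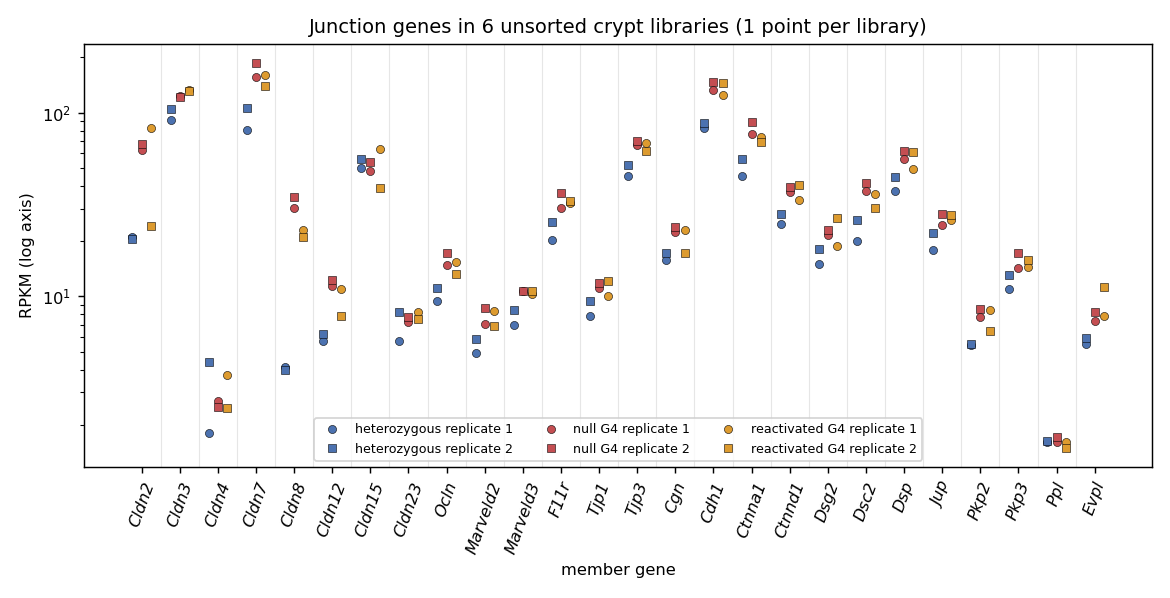
RPKM of the 26 detected junction genes in the 6 unsorted libraries (log axis), with each point 1 library and groups by colour, genes ordered by junction type. The heterozygous points are lowest for most genes, and Cldn8 and Cldn2 show the widest gaps.

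Junction genes outside the set were counted from lists of known components. In null G4 against heterozygous crypts none passed among 16 tested genes of other tight junction and polarity proteins (9 at an unadjusted p under 0.05 by limma), 10 of other adherens junction proteins (6), 3 of other desmosome proteins (3), 1 other claudin (0), 11 proteins that act on junctions (6) and 10 epithelial and mesenchymal transcription factors (1). At that unadjusted level 44.2% of all genes lay.

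Of the 26 junction genes none passed between reactivated and null G4 crypts, beside 0.0262% of all genes that passed. By limma 1 had an unadjusted p under 0.05, beside 2.7% of all genes, and it was Cldn8, whose values in the same null G4 libraries chose the set. Cldn8 was lower by 0.55 on the log2 scale (log2 difference -0.55, SE 0.18), beside a median of -0.14 for all genes. This too is given as a description, because a choice by high null values favours lower values in other libraries. Only 6 of 26 members were above 0, as were 18.6% of all genes, but 18 lay above the all-gene median. The next were Cldn12 (-0.32, SE 0.19), Evpl (0.24, SE 0.19) and Cldn2 (-0.53, SE 0.46), each with an adjusted p of 0.833. Groups did not overlap for 5 members that were lower (Cldn8, Cldn12, Ctnna1, Dsc2 and Ppl; 25.5% of all genes) and for 1 that was higher (Cldn3; 4.58% of all genes). Both reactivated libraries lay between the heterozygous and null pairs for 4 members, Cldn8, Cldn12, Ctnna1 and Dsc2 (15.4%, against 14.8% of all genes).

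Against heterozygous crypts, which are the same 2 libraries as above, reactivated crypts had Cldn8 higher by a log2 difference of 2.18 (SE 0.18), again given as a description, and no other member passed (1.13% of all genes passed as higher). The closest were Evpl (0.63, SE 0.19, adjusted p = 0.233), Cldn12 (0.56, SE 0.19, adjusted p = 0.29) and Cdh1 (0.66, SE 0.23, adjusted p = 0.295). Both reactivated libraries lay above both heterozygous ones for 21 of 26 members (80.8%), against 46.7% of all genes, and below both for Ppl (4.42% of all genes). The median difference was 0.43 beside 0.22 for all genes, with 24 of 26 members above 0 (84.1% of all genes). Within the libraries that expressed Y-linked genes, reactivated replicate 2 was above both heterozygous libraries for the same 21 members (50.5% of all genes), and it was below both for Cldn15 and Ppl (22.6% of all genes). Within the Xist-expressing libraries, reactivated replicate 1 was above both null G4 libraries for 5 members (19.2%, against 26.8%) and below both for 11 (42.3%, against 32%). All 3 Xist-expressing libraries were above all 3 Y-expressing ones for 11 members, among them Cldn2, Cldn7, Cldn8 and Cldn12 (42.3%, against 63.7% of all genes), and below them for none (2.02% of all genes). Reactivated replicate 1 was above replicate 2 for 16 members (61.5%), against 83.3% of all genes.

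In sorted crypt base cells, of 24 tested junction genes none passed in null G3 against heterozygous cells, and none had an unadjusted p under 0.05 by limma, whereas 143 of all 8734 genes did (1.64%) and 0 of these passed. All 24 differences were below 0 (median -0.40, -1.70 to -0.05), beside a median of -0.46 and 7.77% above 0 for all genes, and 15 lay above that median. In 5 members (Cldn2, Cldn23, Marveld2, Tjp1 and Dsg2) the null libraries were all below the heterozygous ones, as in 12.6% of all genes, and in none all above (0.114%). Under median scaling 16 of 24 were above 0, so the common direction depends on the scaling. Mitochondrial ribosomal RNA took 71.9%, 64.4% and 46.8% of summed RPKM in null G3 and 41.4%, 38.7% and 53.6% in heterozygous cells, and null G3 replicate 2 alone expressed Y-linked genes (8.54 RPKM, Xist 0.492). The part of both in these differences was not tested.

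In sorted cells Cldn2 was the most abundant member in every heterozygous library, at 156.0, 152.7 and 133.3 RPKM for heterozygous and 5.82, 114.5 and 120.2 for null G3 libraries. The library at 5.82 is the null G3 replicate 1 that stood apart. The log2 difference was -1.70 (SE 0.98, adjusted p = 0.481), and -0.32 (SE 0.26) without that library. Cldn2 made up 51.7% to 65.0% of claudin RPKM in the other sorted libraries and 7.92% in that one, whereas Cldn15 made up 11.1% to 16.5% in the others and 50.4% there. Cldn8 lay at 4.96, 2.92 and 3.10 RPKM for heterozygous and 0.0627, 3.05 and 2.87 for null G3 cells, so the other null libraries were near the heterozygous level. Its log2 difference was -0.84 (SE 0.51, adjusted p = 0.481), and -0.21 (SE 0.23) without replicate 1.

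Marveld2 lay at 9.966, 11.13 and 10.03 RPKM for heterozygous and 3.19, 6.08 and 9.62 for null G3 cells (log2 difference -0.74, SE 0.42), and Cldn7 differed by -0.77 (SE 0.48), both with an adjusted p of 0.481. Without replicate 1 they were -0.39 and -0.51. Without it the 24 differences ran from -0.51 to -0.02, and 4 of 24 lay above the all-gene median of -0.18. Evpl (0.301 to 0.885 RPKM) and Cldn4 (0.118 to 1.46) were too low to test in sorted cells.

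**Figure D5:**
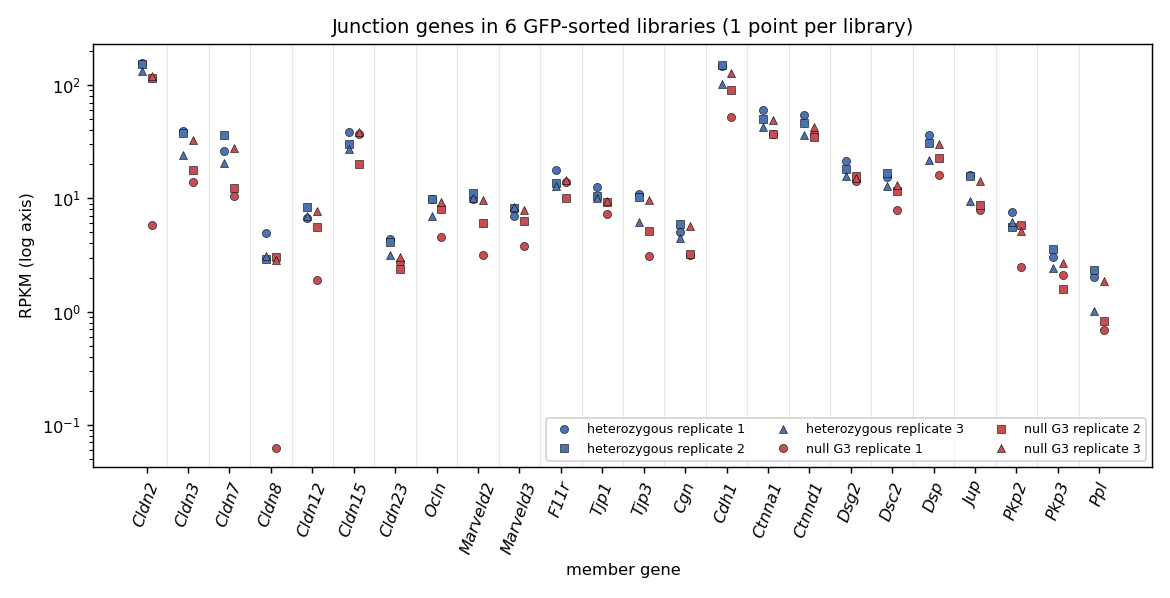
RPKM of the 24 tested junction genes in the 6 sorted libraries (log axis), with each point 1 library and groups by colour. Null G3 replicate 1 is lowest for most genes and far below the rest for Cldn2 and Cldn8.

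Sorted and unsorted libraries were not tested against each other, because the 2 sets appear to have been scaled separately, but ratios within a library avoid that scale. Tjp3 to Tjp1 was 0.428 to 1.02 in sorted libraries, where it was 5.08 to 6.82 in whole crypts. Evpl to Ppl was 0.22 to 1.01 against 3.39 to 7.5, and Pkp3 to Pkp2 was 0.27 to 0.84 against 1.73 to 2.44. Dsc2 to Dsg2 was 0.556 to 0.925 against 1.13 to 1.93, and Cldn2 to Cldn7 was 0.551 to 9.2 against 0.174 to 0.515. In these 5 pairs the ranges of the sorted and unsorted libraries did not overlap. They overlapped in the other 3 of the 8 ratios computed: Cldn2 to Cldn15 (0.157 to 5.74 against 0.369 to 1.31), Cldn7 to Cldn3 (0.676 to 0.949 against 0.893 to 1.52) and Cldn8 to Cldn7 (0.00594 to 0.245 against 0.0374 to 0.195). The 8 pairs were chosen among the members, and the share for pairs of other genes was not computed. Whether such a count is particular to junction genes is therefore not known.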

How the data were processed

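RNA was isolated with the Qiagen RNeasy kit and 1 ug per library was made into TruSeq RNA libraries, per the labels' protocols. STAR 2.3.0e and mm10 are named, with no role, in the submitters' processing notes, and no source used here gives the annotation, counting tool or strand setting. The authors deposited RPKM values in 1 table of 28793 genes and 12 columns (0 columns left out). Read counts were not used here. The table lists 25686 genes for sorted and 27658 for unsorted libraries, so the 2 sets appear to have been normalized separately and were fitted apart.

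Values were transformed to log2(RPKM + 1), so differences of low genes are understated. A gene was tested if the libraries in which its RPKM reached 1 numbered no fewer than the smallest group (2 unsorted, 3 sorted). The test was the two-sided moderated test of limma 3.58.1 (R 4.3.3) with a mean trend. P-values were adjusted by Benjamini-Hochberg over all tested genes, and those below 0.05 counted as passed. The 3 unsorted groups shared 1 spread. The script was tested on simulated data. Alternatives were other pseudocounts, filters, scalings and fits, a replicate block, a term for summed Y-linked RPKM and leaving out each library.

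Members and gene lists were chosen with earlier results of these data known. In each comparison differences with errors are given for Cldn8, the members that passed and, where fewer than 4 passed, the 4 of smallest unadjusted p. Hoxb13, Hoxd13, Insl5 and Scnn1b are named as markers. Low RPKM values were read as whole reads within 0.05 reads, up to 5 reads, in 81.3% to 83.3% of unsorted and 29% to 81.2% of sorted values, where chance gives 10%, and gave the depths. Promoters are from RefSeq (GRCm38.p6, 20 of 31 members matched), coordinates from GENCODE release M21 (mm10, 28200 identifiers matched). Tables and plots were made in Python 3.11.15 (pandas 2.3.3; numpy 2.4.6; matplotlib 3.10.9).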

Additional observations from a re-analysis of the deposited data

Results flagged for a closer look

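For 4 junction genes every null G4 unsorted library lay above the heterozygous ones while every null G3 sorted library lay below them. The null effect in whole crypts minus that in sorted cells was 3.30 on the log2 scale for Cldn2 (1.60 and -1.70), 1.21 for Marveld2 (0.47 and -0.74), 0.70 for Tjp1 (0.38 and -0.33) and 0.68 for Dsg2 (0.40 and -0.28). The median over all tested genes was itself 0.36 in whole crypts and -0.46 in sorted cells. Relative to those medians Tjp1 (0.01 and 0.14) and Dsg2 (0.04 and 0.19) were above in both sets. Cldn2 (1.24 and -1.23) and Marveld2 (0.11 and -0.28) still differed in sign. These differences were not tested, and the generation of the null mice differs between the sets as well as the cells. The pattern was present in 4 of 24 members (16.7%) and in 901 of 8479 genes (10.6%) tested in both sets. The sorted values depend on null G3 replicate 1. Without it the all-gene median in sorted cells was -0.18, and Cldn2 was at -0.32 and Marveld2 at -0.39. Tjp1 (-0.22) and Dsg2 (-0.24) then lay below that median and no longer above it.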

How the results depend on the processing

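The count of passing genes depended on the fit far more than the Cldn8 value did. In null G4 against heterozygous crypts 636 genes and 2 members passed, with Cldn8, whose value chose the set, counted among the members here and below. With no filter the numbers were 21 and 1, with quantile normalization 237 and 1, with median scaling 322 and 1, and with the Y-linked term 69 and 1. In these fits the 1 member was Cldn8, whose pass is no test because its values chose the set, and no other member passed. The numbers were 1967 and 4 with robust empirical Bayes and 5804 and 14 with only the 2 groups. With no mean trend 4 members passed, beside 6.5% of all genes. Leaving out 1 library gave 112 to 5492 genes and 1 to 14 members: without reactivated replicate 1 or 2 they were 5407 and 13 or 5492 and 14, and without heterozygous replicate 1 or 2 or null G4 replicate 1 or 2 they were 218, 246, 142 and 112 genes with 1 member each. Cldn8 stayed between 2.31 and 2.98 over 18 alternatives, while Cldn12 lost its call in 8 of 18. Between reactivated and null G4 crypts 3 genes passed, 0 with no filter (883 at an unadjusted p under 0.05 by limma), 0 with quantile normalization (354), 6 with the Y-linked term, 8 with only the 2 groups, and 4 to 62 without 1 library (62 without reactivated replicate 1, 7 without reactivated replicate 2 or null G4 replicate 2, 5 without null G4 replicate 1); no member passed under any of these. Between reactivated and heterozygous crypts 146 genes passed, 22 with no filter, 88 with quantile normalization, 94 with median scaling and 120 to 1919 without 1 library, with 1 to 4 members; the 1919 genes and 4 members, Cldn12 among them (adjusted p = 0.0398), came without reactivated replicate 2. In sorted cells 0 genes passed under 16 alternatives. Cldn2 changed sign in 3 settings: -0.13 with the Y-linked term in null G4 against heterozygous, and, in reactivated against null G4, 0.33 with that term and 0.33 without reactivated replicate 2 (-1.39 to 0.33 without 1 library). The cause was not tested.

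The replicate block gave 1317 genes and 3 members in null G4 against heterozygous crypts (Cldn2 with an adjusted p of 0.0102), 9 genes in reactivated against null G4 and 264 in reactivated against heterozygous. The correlation of deviations of same-numbered libraries was 0.219, -0.0691 and -0.124 in the unsorted set. With 2 libraries a group, differently numbered libraries must give the same values with opposite sign. The unsorted values therefore cannot decide whether the numbers pair the samples. In the sorted set the correlation was -0.19 to 0.0533 for same-numbered and -0.107 to 0.206 for differently numbered libraries. With the reactivated numbers crossed, an alternative chosen after seeing the data, the block gave 4696 genes and 15 members, 1 gene, and 138 genes. The 5 claudins below 0.1 RPKM were too low to compare.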
